A study of Homo sapiens with 8 samples.

Results

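The RNAs of 9 genes for SR proteins and their relatives were examined as targets of TIA1 and of RBFOX2 in HEK293T cells, a line grown without limit that derives from human embryonic kidney. The genes were SRSF1, SRSF2, SRSF3, SRSF5, SRSF6, SRSF7, SRSF11, TRA2A and TRA2B. Each was represented by a span of hg19, given to the kilobase, and every deposited peak that overlapped a span on the strand of the gene was taken. The spans covered 183 kb in all. They held 11 of the 7442 peaks in both lists, which were 7 of 3215 TIA1 peaks and 4 of 4227 RBFOX2 peaks.

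The peaks came from eCLIP, which crosslinks protein to RNA with ultraviolet light, pulls the protein down and sequences the attached RNA. The groups were TIA1 clip, TIA1 input, RBFOX2 clip and RBFOX2 input, with 2 libraries each, where clip is the immunoprecipitated RNA and input the RNA taken before that step. All libraries came from cells irradiated with 600 mJ and carry no further treatment in the labels. The clip libraries were made with an antibody to the HA tag, and no label says how the proteins came to carry a tag. A protocol text shared by all libraries, those of RBFOX2 included, also speaks of beads bound to TIA1, so which antibody the RBFOX2 list rests on is not settled by the labels. The labels write HEK293T as the cell line and HEK293 in the culture protocol, and describe the replicates as biological in one field and as technical in another.

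SR proteins carry an RNA recognition domain and a tail rich in arginine and serine. They bind exons in pre-mRNA and help the splicing machinery to find splice sites. Many of them also limit their own amount: when the protein is plentiful, its pre-mRNA is spliced to a form with an early stop codon that is then degraded. TIA1 binds RNA rich in uridine, is found in stress granules and acts in splicing next to weak splice sites. RBFOX2 regulates splicing through the element GCAUG.

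Because the deposited peaks are in hg19 and no hg19 sequence was used here, the letters under the peaks are not shown. The mature transcripts of the 9 genes in GENCODE 29, a GRCh38 annotation, could be read without coordinates, and these were searched for GCATG and for runs of at least 5 T. The search used the sense strand of 1 transcript a gene, written as DNA. The motifs cannot share a base with each other. Where a motif lies relative to a peak was not tested, and a match is not a binding site.

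The windows below are from the genes with a peak in either list. They are shown because they hold the letters that each protein is known for. In capitals is the GCATG, or the longest run of T in the transcript, and in lower case up to 10 bases on each side. TRA2B held 3 GCATG, at transcript positions 1145, 1368 and 2789, and its longest T run began at position 1375, just after the second of them.
TRA2B GCATG 1: cgctattaaaGCATGaagactttct
TRA2B GCATG 2: agtatgttttGCATGtattttttta
TRA2B GCATG 3: tttctgataaGCATGtggaaacaac
TRA2B T run: tttgcatgtaTTTTTTTacagtctaaa
SRSF11 held 3 GCATG, of which the first 2 began at positions 1810 and 1827.
SRSF11 GCATG 1: atgaaaagctGCATGcatctacagc
SRSF11 GCATG 2: tctacagcagGCATGgattgtttat
SRSF11 GCATG 3: tgcactgattGCATGttattgtggc
SRSF11 T run: ttttgttttgTTTTTTTTaacctaaaaa
The SRSF2 and SRSF1 transcripts held no GCATG. The longest T run of SRSF2, of 10 bases, was followed after a single C by another run.
SRSF2 T run: gatacagcccTTTTTTTTTTcttttttttt
SRSF1 T run: aatcttttcaTTTTTTaattcaaact

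Runs of T were dense in some of these transcripts and sparse in others, both among genes with TIA1 peaks and among genes with none listed. Whether their density is related to TIA1 peaks was not tested. The searched transcripts hold no introns, where a peak may lie, and a gene without a listed peak is not shown to be unbound. The median over 19631 protein-coding genes was 1.40 runs per kb of transcript. Of the 9 genes, 7 lay above it. SRSF2, with TIA1 peaks, had 4.16 runs per kb and SRSF11, also with TIA1 peaks, had 3.17. TRA2A and SRSF3, with no listed peak, had 4.34 and 4.03 runs per kb. The remaining genes with TIA1 peaks were near the median, with 1.69 runs per kb in TRA2B and 1.32 in SRSF1. The SRSF1 value rests on 2 runs in the shortest of the 9 transcripts, and its other transcript forms were not examined. In the last 1500 bases of the transcript, all 9 genes had at least 1 such run, as did 84.1% of the 15683 protein-coding genes whose transcripts are that long. For SRSF1, with a transcript of 1513 bases, this was nearly all of it.

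GCATG was likewise not limited to the genes with RBFOX2 peaks. It was present in the transcripts of 6 of the 9 genes and absent from those of SRSF1, SRSF2 and TRA2A. The share of all protein-coding genes with GCATG anywhere in the transcript was not computed, so this count has no background. It is given as a description, and the 9 transcripts differ in length, from 1513 bases in SRSF1 to 4325 in SRSF6. Its median density was 0.793 per kb over the 9 genes and 0.833 per kb over all protein-coding genes. Both genes with RBFOX2 peaks, TRA2B and SRSF2, fell on different sides, with 1.02 and 0 occurrences per kb. The highest density, 1.61 per kb, was in SRSF7, which had no listed peak. In the last 1500 bases 3 of the 9 genes had the element, against 74.5% of the 15683 genes. This difference was not tested. The searched transcripts hold no introns, and neither the letters in introns nor other transcript forms were examined.

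**Figure D1:**
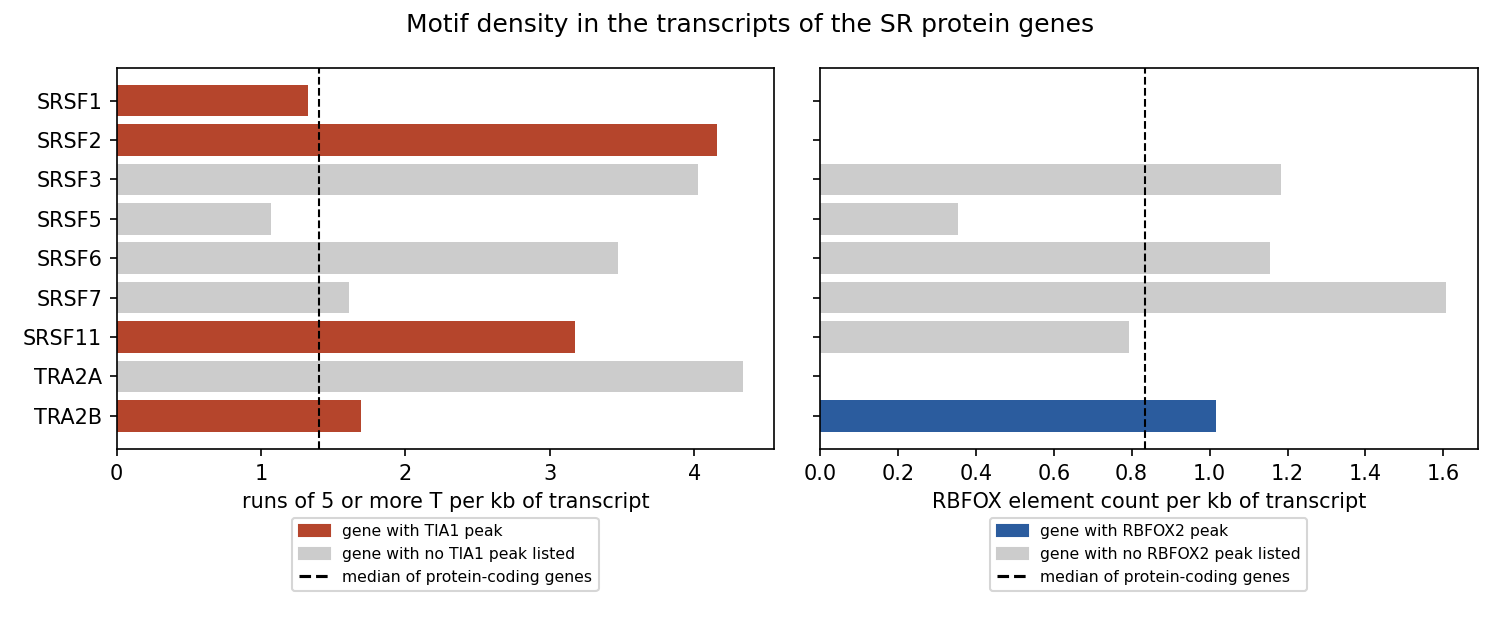
Bars give runs of 5 or more T (left) and GCATG, the RBFOX element (right), per kb of the GENCODE 29 transcript of each gene. Coloured bars are genes with a peak of TIA1 (left) or RBFOX2 (right), grey bars genes with none listed, and the dashed line the median of 19631 protein-coding genes, 1.40 on the left and 0.833 on the right. SRSF2, SRSF1 and TRA2A have no bar on the right because their transcripts hold no GCATG.

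Peaks were found on 4 of the 9 genes. TIA1 peaks lay on SRSF1, SRSF2, SRSF11 and TRA2B. RBFOX2 peaks lay on SRSF2 and TRA2B. The share of all genes with a peak of either protein needs an hg19 annotation and was not computed, so these gene counts have no background and are given as a description. SRSF3, SRSF5, SRSF6, SRSF7 and TRA2A had none in either list. These 5 encode classical SR proteins, apart from TRA2A, the close relative of TRA2B. Each list joins both replicates and keeps only peaks past its limits, so a gene without a peak is not shown to be unbound. Since the lists carry no values of single libraries, the spread of the replicates is unknown and no test was made between genes or between the proteins.

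The surroundings of the spans were also searched. On the opposite strand of the spans, 0 TIA1 and 0 RBFOX2 peaks were listed. Within 10 kb on either side of the spans, on the gene strand, the counts were also 0 and 0. Both lists are sparse, and how many peaks would be found in regions of this size elsewhere was not tested. On the gene strand, the nearest peak outside a span lay 90.3 kb away or more in TIA1 and 114 kb away or more in RBFOX2. The opposite strand was not searched beyond the spans. For SRSF11 the nearest other TIA1 peak on the strand was 7768 kb away. All 9 spans have the chromosome and strand of their gene in GENCODE 29, and 8 of the 9 are at least as long as that gene, with SRSF3 shorter by 248 bases. The largest difference in length was in SRSF1, with a span of 7000 bases and an annotated gene of 3987. For SRSF1 a second annotated protein-coding gene, AC015813.2, overlaps on the same strand, and for SRSF2 the microRNA gene MIR636 does. A peak in such an overlap could not be assigned to one transcript by position alone. Whether any peak lies in one was not tested.

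**Figure D2:**
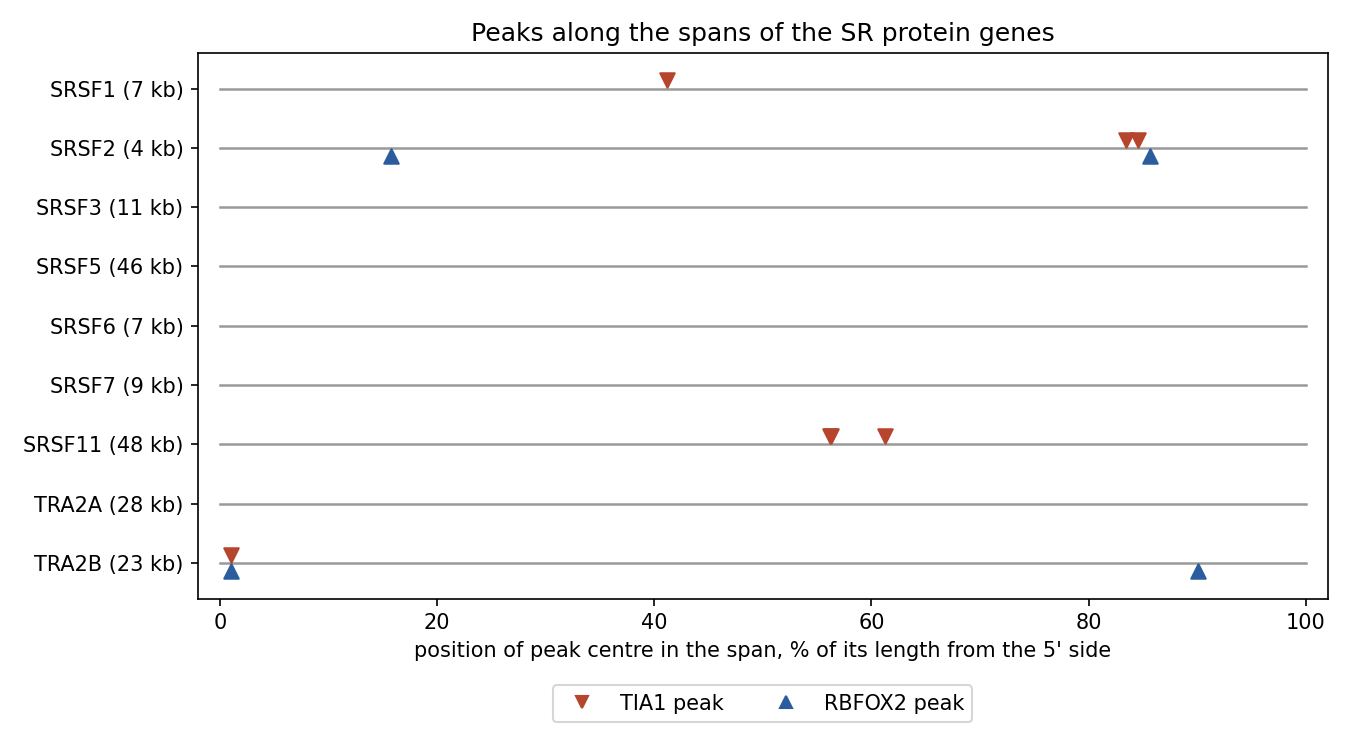
Each line is the span of 1 gene, from its 5′ side at left to its 3′ side at right in percent of its length, with the length in kb beside the name. Red triangles above the line are centres of TIA1 peaks and blue triangles below it are centres of RBFOX2 peaks. The abutting TIA1 peaks of SRSF11 fall on one another at 56.2 and 56.3%. SRSF3, SRSF5, SRSF6, SRSF7 and TRA2A are empty.

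SRSF11 encodes an SR-related protein of nuclear speckles and carried the most TIA1 peaks of the 9 genes, with 3. Its span, at 48 kb, was also the longest of the 9. A pair of abutting peaks at chr1:70697970-70698011 and chr1:70698012-70698052, plus strand, had log2 folds of 3.60 and 3.34. A separate peak, chr1:70700379-70700398, had a log2 fold of 3.80, or 13.9-fold. The peaks thus formed 2 places in the middle of the span, 2326 bases apart. Their −log10 p were 15.5, 21.3 and 24.5 in that order, the highest of all 11 peaks. That last peak stood above 90.7% of the TIA1 list by −log10 p and above 83.5% of it by fold. No RBFOX2 peak was listed in the 48 kb of SRSF11, and the nearest on the strand lay 114 kb outside it.

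SRSF2 encodes a protein of nuclear speckles that lowers its own mRNA by promoting splicing in its 3′ untranslated region. It was the shortest of the spans, 4 kb, and had 2 peaks of each protein. The TIA1 peaks abutted, at chr17:74730648-74730676 and chr17:74730590-74730647 on the minus strand, with log2 folds of 3.83 and 3.59 and −log10 p of 7.98 and 8.99. They began 3324 and 3353 bases from the 5′ edge of the span, toward its 3′ side. An RBFOX2 peak of 19 bases, chr17:74730564-74730582, followed 7 bases further along the RNA, with a log2 fold of 3.33 and a −log10 p of 7.40. It shared no base with the TIA1 peaks, and counts as separate from them.

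The other RBFOX2 peak of SRSF2 lay toward the 5′ side, at chr17:74733347-74733395. It began 605 bases from the 5′ edge of the span and had a log2 fold of 3.05 and a −log10 p of 6.72. No TIA1 peak lay near it, and the closest was 2670 bases away. RBFOX2 was thus listed at both sides of the gene and TIA1 at one. In SRSF2 the TIA1 folds, at 3.59 and 3.83, were above the RBFOX2 folds, at 3.05 and 3.33, but the lists come from separate immunoprecipitations and this difference was not tested.

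TRA2B encodes a splicing activator related to the fly protein Transformer-2, and that protein promotes inclusion of an exon with stop codons in its own pre-mRNA. It was the only one of the 9 genes where peaks of both proteins shared bases. A TIA1 peak at chr3:185655741-185655783 on the minus strand lay wholly within an RBFOX2 peak at chr3:185655737-185655800, and all of its 43 bases were shared. The folds were almost the same and near the lower limit of the lists, at a log2 fold of 3.05 for TIA1 and 3.03 for RBFOX2. The −log10 p was 8.19 for TIA1 and 5.71 for RBFOX2. The shared place lay at the 5′ side of TRA2B, starting 217 bases from the edge of the span in TIA1 and 200 bases in RBFOX2.

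The second RBFOX2 peak of TRA2B lay at the other end of the gene, at chr3:185635233-185635335, 20401 bases from the first. It began 20665 bases from the 5′ edge of the span and ended 2232 bases before its 3′ edge. Its log2 fold of 3.92, or 15.1-fold, was the highest RBFOX2 fold on the 9 genes and stood above 76.7% of the RBFOX2 list. Its −log10 p of 3.46 was the lowest of the 11 peaks and stood above 6.88% of that list. As in SRSF2, RBFOX2 peaks were thus listed at both sides of the gene, and TIA1 only at one, though on the 5′ side here and on the 3′ side in SRSF2. Neither gene kept RBFOX2 peaks at both sides under every alternative. The 3′ peak of TRA2B was lost at a −log10 p of at least 5. The 3′ RBFOX2 peak of SRSF2 was lost when peaks under 20 bases were left out.

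SRSF1 encodes the founding SR protein, a splicing activator. It had 1 TIA1 peak of 26 bases, chr17:56082107-56082132, minus strand, 2868 bases from the 5′ edge of the 7 kb span. The log2 fold was 4.04, or 16.5-fold, the highest of the 11 peaks and above 91.8% of the TIA1 list. The −log10 p was 3.67, above 9.95% of that list. The order of the TIA1 peaks by fold and by −log10 p was therefore different: SRSF1 led by fold and came last by −log10 p, while SRSF11 led by −log10 p. A −log10 p also depends on read depth, which is not known here.

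**Figure D3:**
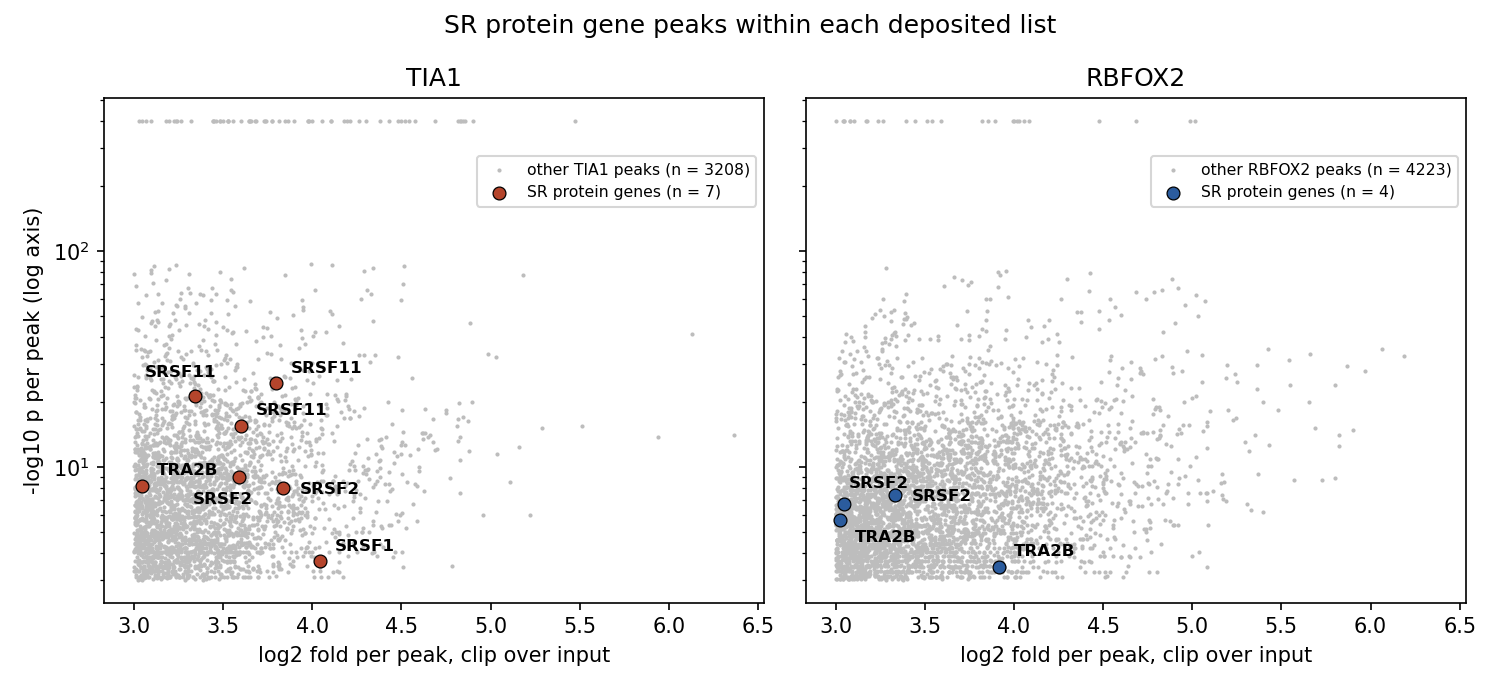
Each point is a deposited peak of TIA1 (left) or RBFOX2 (right), with its log2 fold, clip over input, on the horizontal axis and its −log10 p on a log vertical axis. Coloured points are the 7 TIA1 and 4 RBFOX2 peaks on SR protein genes, grey points the other peaks of the list. The SRSF11 peaks are the highest among the coloured points, and SRSF1 is the one farthest to the right at 4.04.

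By highest log2 fold in TIA1, the genes stood in the order SRSF1 (4.04), SRSF2 (3.83), SRSF11 (3.80) and TRA2B (3.05). By bases covered with TIA1 peaks the order was SRSF11 (103 bases), SRSF2 (87), TRA2B (43) and SRSF1 (26). For RBFOX2, TRA2B led SRSF2 in both, with a highest log2 fold of 3.92 against 3.33 and 167 bases covered against 68. The orders take no account of span length, which was 48 kb in SRSF11, 23 kb in TRA2B, 7 kb in SRSF1 and 4 kb in SRSF2. With no value per replicate, it cannot be said which neighbours in these orders differ.

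Against the rest of their lists, the TIA1 peaks on SR protein genes had a median log2 fold of 3.60, and the other 3208 TIA1 peaks 3.36. The 4 RBFOX2 peaks had a median of 3.19, and the other 4223 RBFOX2 peaks 3.48. The TIA1 peaks here were thus above their list by the median and the RBFOX2 peaks below theirs, with ranges, 3.05 to 4.04 and 3.03 to 3.92, that take in both medians of the lists. These differences were not tested. Past a log2 fold of 4 stood 1 of the 7 TIA1 peaks, that of SRSF1, against 9.21% of the whole TIA1 list. Among RBFOX2 peaks it was 0 of 4 (95% Clopper-Pearson interval 0 to 60.2%), against 19.3% of the whole list. With so few peaks, neither share can be told from that of its list.

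Median widths were 41 bases for the TIA1 peaks here, and 61 for the rest of the TIA1 list. For RBFOX2 they were 56.5 and 70 bases. A neighbour from the same list and strand, no more than 1 kb away, was present for 4 of the 7 TIA1 peaks, the abutting pairs of SRSF11 and SRSF2. This was 57.1%, against 53.6% in the rest of the list. For RBFOX2 it was 0 of 4, against 66.5% in the rest (95% Clopper-Pearson interval of the first 0 to 60.2%). The RBFOX2 peaks on SRSF2 and TRA2B thus had no other RBFOX2 peak within 1 kb, though a TIA1 peak lay close to or inside some of them. They come from these genes alone, and the difference from the rest of the list was not tested. Peaks of one RNA are not independent, and these intervals cover counting error only.

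Overlap between the proteins was limited to TRA2B. Of the TIA1 peaks on SR protein genes, 1 of 7 shared at least 1 base with an RBFOX2 peak, or 14.3% (95% Clopper-Pearson interval 0.361 to 57.9%), against 24.0% of the whole TIA1 list. Of the RBFOX2 peaks, 1 of 4 overlapped a TIA1 peak, or 25% (0.631 to 80.6%), against 21.7% of the whole RBFOX2 list. With so few peaks, neither count can be told from the level of its list. Counting peaks that lay within 50 bases of one another added SRSF2, which gave 2 of 7 TIA1 peaks, against 28.2% of the whole TIA1 list, and 2 of 4 RBFOX2 peaks, against 26.7% of the whole RBFOX2 list. These counts are too small to be told from those shares.

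**Figure D4:**
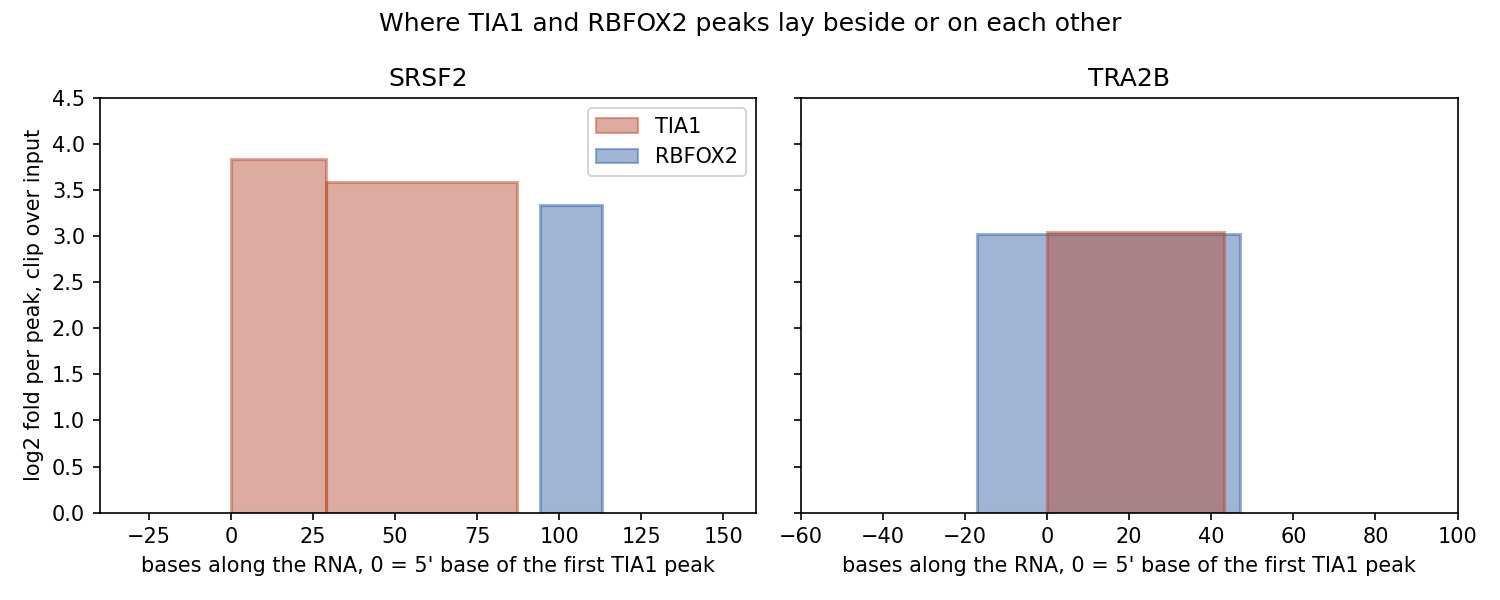
Boxes are peaks of TIA1 (red) and RBFOX2 (blue) where they lay close, drawn 5′ to 3′ along the RNA in bases from the 5′ base of the first TIA1 peak, with the log2 fold, clip over input, as the height. In SRSF2 (left) the RBFOX2 peak follows the TIA1 peaks after a gap of 7 bases. In TRA2B (right) the TIA1 peak lies inside the RBFOX2 peak.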

How the data were processed

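The authors deposited 1 list of eCLIP peaks per protein, each tied by the labels to 2 clip and 2 input libraries. The submitters' processing notes name UMI-tools 1.0.0, cutadapt 1.14, STAR 2.4.0i, SAMtools 1.6 and hg19, with no role for each. No source used here names the peak caller. The deposited files have no header. One deposited column was read as −log10 of a p-value (from 3.01 up to 400) and another as a log2 fold of clip over input (3 upward), from their values. Every fold and −log10 p per peak is the authors' own. Depth is unknown, since the lists hold no reads.

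Peaks were selected by span and strand and compared by overlap of at least 1 base on the strand, with Python 3.11.15, pandas 2.3.3, numpy 2.4.6 and scipy 1.17.1. The overlap, joining and span selection steps were tested on made lists with known answers, built in part by shifting deposited RBFOX2 peaks. The motif search was not tested in this way. Coordinates are 1-based hg19, and no GRCh38 coordinate was set against them. Motifs were searched in the longest protein-coding APPRIS principal transcript of each gene in the GENCODE 29 basic set.

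All 9 genes are named, each with all of its peaks. The genes and lists were chosen with earlier results of these data known. Other genes of the SR pathway, exons, introns and sequence at the peaks need an hg19 annotation and were not analysed here. Alternatives covered the fold and p limits, joining, span borders, peak width and overlap rule, and leaving out SRSF1 was added after the data were seen.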

Additional observations from a re-analysis of the deposited data

How the results depend on the processing

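A log2 fold of at least 4 left 1 TIA1 peak (SRSF1) and 0 RBFOX2 peaks on the 9 genes, in place of 7 and 4, and 0% of TIA1 peaks then overlapped an RBFOX2 peak (0 of 1). With no RBFOX2 peak left, no RBFOX2 median or share could be given there. Under the other alternatives the counts ran from 5 to 7 TIA1 and from 3 to 4 RBFOX2 peaks. The median log2 fold ran from 3.60 to 3.80 in TIA1 and from 3.05 to 3.19 in RBFOX2. Overlapping peaks made up 14.3 to 28.6% of those of TIA1 and 25 to 50% of those of RBFOX2, where the upper values count peaks within 50 bases and stand against 28.2 and 26.7% of the whole lists. By gene, the peak of SRSF1 and the 3′ peak of TRA2B were lost at a −log10 p of at least 5, and the RBFOX2 peak beside the TIA1 peaks of SRSF2 was lost when peaks under 20 bases were left out. Leaving out SRSF1, chosen after seeing the data, left 6 TIA1 peaks with a median log2 fold of 3.60. No paired analysis was possible because the lists give 1 value a peak for both replicates together, which also prevents leaving a replicate out. With 11 peaks in all and no depth, neither a missing peak nor a difference in share can be read as a difference in binding.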
